A study of Mus musculus with 11 samples.

Results

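Divergent promoter pairs are places where a pair of genes start close together on opposite strands and are transcribed away from each other. Members were chosen from the GENCODE vM1 gene starts of mouse build mm9: protein-coding genes of chromosomes 1 to 19 whose transcription start sites (TSSs) lay 0 to 1000 bp apart in that orientation. There were 789 such pairs with 1562 different genes, 7.29% of the 21418 protein-coding genes of these chromosomes and part of 37310 annotated genes. The rule uses annotated positions and no read count. Of these genes, 16 stood in more than 1 pair, and 6 pairs shared both TSS positions with another because the annotation gives 2 gene identifiers the same TSS there (as for Wfdc3/Dnttip1 and Rad17/Taf9). Another 28 pairs lay in the 1% of 100 kb tiles with the most intervals in the no-Dox library and were left out, so that 761 pairs were used. They were set beside 12221 isolated promoters, protein-coding TSSs with no other TSS within 10 kb, after 264 of 12485 were left out in the same way.

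The study asked where histone variants are placed and how fast they are replaced in mouse embryonic stem (ES) cells and mouse embryonic fibroblasts (MEFs). Epitope-tagged histones (HA-H3.3 or HA-MacroH2A2, here HA-Macro) were switched on with doxycycline (Dox), and chromatin bound by an anti-HA antibody was sequenced after increasing times. There were 11 libraries with 1 library per condition, so no difference below has a replicate check and no test was made. Intervals given as 95% limits, written in brackets after a value, cover counting error only.

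All cells were labelled as strain 129 X C57bl/6. The inducible ES cells were KH2 cells, a line that carries the Dox-dependent activator M2rtTA at the ROSA26 locus and received the tetO-driven HA histone at Col1a1. HA-H3.3 ES cells were given 2 µg/ml Dox for 3 or 6 h. HA-Macro ES cells were left without Dox or were given 2 µg/ml for 3, 6 or 12 h, and the uninduced library is the anti-HA background. HA-Macro MEFs came from chimeric embryos made with the HA-Macro ES cells, were selected with puromycin so that the injected cells' descendants remained, and received Dox for 3, 6 or 12 h. The other libraries used an antibody against MacroH2A2 itself. By their labels they come from untreated parental KH2 ES cells and wild type MEFs with 2 replicates combined in each, whereas the study's text describes such maps from HA-Macro cells with and without Dox, so only their antibody and cell type are relied on here. ES cells were grown on feeder MEFs, which were depleted by pre-plating at the time of induction. These libraries hold occupancy and not RNA, so they cannot name a cell type from transcripts. The promoters of 8 ES cell marker genes summed to 9.36 p.p.m. of anti-MacroH2A2 in ES cells and 10.7 p.p.m. in MEFs, and those of 8 fibroblast marker genes to 8.66 and 4.50 p.p.m.

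In a divergent pair the promoters of the partners share one short stretch of DNA, often a CpG island kept free of nucleosomes, from which RNA polymerase leaves in both directions. Such pairs are common in mammals and are known for housekeeping genes of DNA repair, mitochondria, translation and protein folding. H3.3 is the histone H3 variant placed outside DNA replication and is typical of active promoters. MacroH2A2 is an H2A variant with a large globular macro domain, best known from silent chromatin.

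Library depth ran from 6488112 to 20541627 intervals. Intervals were 400 bp long in the libraries of HA-H3.3 and of the MacroH2A2 antibody and 150 bp long in those of HA-Macro, so profiles of the former are blurred. The HA-Macro ES library at 3 h stood apart: 0.112% of its distinct intervals lay on chromosome Y, against 0.0219% to 0.0244% in the other HA-Macro ES libraries. That share was close to those of HA-H3.3 at 3 h (0.102%) and of anti-MacroH2A2 in ES cells (0.100%), whereas its interval length (150 bp) and its share of repeated intervals (4.72%, against 5.39% and 6.00% at 6 and 12 h) were like those of the other HA-Macro ES libraries. "HA-Macro in ES cells at 3 h" below means the library so labelled, the part of this in its results was not tested, and values of the 6 h library are set beside them.

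Pairs were tight and rich in CpG. The TSSs of a pair lay 1 to 987 bp apart, with a median of 141 bp (quartiles 73 and 271 bp), and 622 pairs (78.8%) were at most 300 bp apart. Each of the 19 chromosomes held 16 to 67 pairs. A 1 kb window around the middle was CpG-rich, meaning a GC content of at least 50% and a CpG observed over expected ratio of at least 0.6, in 664 pairs (84.2%), against 4963 isolated promoters (39.8%) and 45.1% of all protein-coding promoters. The median GC content was 60.4% in pairs and 53.6% at isolated promoters, and the median CpG ratio 0.778 and 0.470. Among CpG-rich promoters these medians lay close together, at 61.2% and 62.5% GC and at ratios of 0.806 and 0.791. The main levels and changes below are therefore also given within CpG-rich promoters, where 644 pairs and 4850 isolated promoters were used.

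The DNA between the TSSs is shown for 8 pairs, 1 of them a textbook example and the others among the pairs named below for high or low values. Each is the plus strand of mm9 from the base after the minus-strand gene's TSS to the base before the plus-strand gene's TSS, overlaps no annotated gene, and is named with the minus-strand gene first. Capitals mark matches, on either strand, to the motifs of Sp1 (GGGCGG), NF-Y (CCAAT), Ets (CCGGAAG), Nrf1 (GCGCATGCG), YY1 (AAGATGGCG) or the TATA box (TATAAA). Mrps12/Sars2 (chr7:29526840-29527009) is a textbook pair. Gfer/Noxo1 (chr17:24833102-24833178) and Nop14/Grk4 (chr5:35002798-35003027) held the most HA-H3.3. As a share of its library, HA-Macro in ES cells fell most at Nfya/AI314976 (chr17:48549232-48549338) and 6030458C11Rik/Drosha (chr15:12754413-12754569). It rose at 5033414D02Rik/Cd274 (chr19:29441881-29441944). Sgce/Peg10 (chr6:4697205-4697305) held the most anti-MacroH2A2 in ES cells, and Col4a4/Col4a3 (chr1:82583425-82583495) was among those with relatively more of it in MEFs.
Mrps12/Sars2: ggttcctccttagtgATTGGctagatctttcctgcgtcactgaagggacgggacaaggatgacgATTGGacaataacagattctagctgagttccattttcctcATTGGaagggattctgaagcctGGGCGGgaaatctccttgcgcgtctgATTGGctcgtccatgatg
Gfer/Noxo1: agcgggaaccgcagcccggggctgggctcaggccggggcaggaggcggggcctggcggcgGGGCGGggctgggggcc
Nop14/Grk4: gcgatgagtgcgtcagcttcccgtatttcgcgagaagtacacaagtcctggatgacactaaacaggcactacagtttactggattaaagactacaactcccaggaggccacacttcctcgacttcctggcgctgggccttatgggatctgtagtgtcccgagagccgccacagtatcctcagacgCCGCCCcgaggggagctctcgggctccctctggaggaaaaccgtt
Nfya/AI314976: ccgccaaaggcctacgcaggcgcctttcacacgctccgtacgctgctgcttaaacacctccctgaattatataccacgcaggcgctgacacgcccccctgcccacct
6030458C11Rik/Drosha: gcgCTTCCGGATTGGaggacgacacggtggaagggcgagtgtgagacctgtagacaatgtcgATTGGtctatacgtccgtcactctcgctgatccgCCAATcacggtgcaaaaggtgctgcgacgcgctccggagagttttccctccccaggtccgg
5033414D02Rik/Cd274: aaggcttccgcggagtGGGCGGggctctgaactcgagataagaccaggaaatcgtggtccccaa
Sgce/Peg10: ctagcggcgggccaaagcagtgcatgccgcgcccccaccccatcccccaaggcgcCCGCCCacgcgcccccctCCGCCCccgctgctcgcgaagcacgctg
Col4a4/Col4a3: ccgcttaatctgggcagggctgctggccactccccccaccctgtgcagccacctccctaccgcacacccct

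These stretches differed widely. The Mrps12/Sars2 stretch of 170 bases held 4 NF-Y motifs and 1 Sp1 motif at a GC content of 50.0%. The 77 bases of Gfer/Noxo1 were 85.7% GC with 1 Sp1 motif. The Sgce/Peg10 stretch held 13 CpG dinucleotides and 2 Sp1 motifs, whereas the 71 bases of Col4a4/Col4a3 held 2 CpG dinucleotides and none of the motifs. The 6030458C11Rik/Drosha stretch held 3 NF-Y motifs and 1 Ets motif that lies directly before the first of them, and Nfya/AI314976, whose first gene encodes the A subunit of NF-Y, held no motif of the set.

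Over the 300 bp around the middle, on both strands, the Ets motif was present in 28.6% of pairs, against 8.99% of isolated promoters and 11.4% of all protein-coding promoters. Within CpG-rich promoters it was in 30.9% of pairs and 16.2% of isolated promoters. The Nrf1 motif was in 4.94% of pairs and 1.56% of isolated promoters, and the YY1 motif in 5.20% and 1.75%. Among CpG-rich promoters the shares of these motifs were also higher in pairs, at 5.87% and 3.12% for Nrf1 and at 5.42% and 3.45% for YY1. The NF-Y motif was in 42.6% of pairs, 34.8% of isolated promoters and 35.4% of all protein-coding promoters. Sp1 turned around: its motif was in 66.8% of pairs and 43.0% of isolated promoters, but within CpG-rich promoters in 71.5% and 79.2%. The TATA box motif was in 4.82% of pairs and 11.9% of isolated promoters, and within CpG-rich promoters in 3.61% and 3.47%. A match describes the letters of the window and not a bound site.

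HA-H3.3 was higher at pairs than at isolated promoters, by little within CpG-rich promoters and by more within CpG-poor ones. The core level is the number of interval midpoints within 600 bp of the pair's middle or of the isolated TSS. It is also given as p.p.m. of the library's intervals on the autosomes, X and Y. At 6 h of Dox, pairs held 0 to 130 core reads with a median of 34, and isolated promoters had a median of 15. Means were 37.0 and 21.2 reads, or 3.45 and 1.98 p.p.m., a log2 ratio of 0.80 [0.78 to 0.82]. Of the pairs, 681 (89.5%) lay above the isolated median, where 56.2% of all protein-coding promoters lay. At 3 h the means were 14.1 and 8.69 reads, and the log2 ratio was 0.69 [0.67 to 0.72]. Within CpG-rich promoters the 6 h ratio was 0.10 [0.08 to 0.12], and 347 of 644 pairs (53.9%) lay above the CpG-rich isolated median. Within CpG-poor promoters, with 117 pairs and 7371 isolated promoters, it was 1.24.

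Newly made MacroH2A2 in ES cells showed the same order early, and the difference shrank with time. HA-Macro at 3 h of Dox had a median of 23 core reads at pairs (range 1 to 88) and 13 at isolated promoters, and means of 1.42 and 0.900 p.p.m., a log2 ratio of 0.65 [0.63 to 0.68]. At this time 643 pairs (84.5%) lay above the isolated median, against 55.6% of all protein-coding promoters. At 6 h the ratio was 0.28 [0.26 to 0.31], with 504 pairs (66.2%) above the median where 52.4% of all promoters lay. At 12 h it was 0.08 [0.05 to 0.11]. The no-Dox background had a ratio of 0.18 [0.15 to 0.22] at 0.664 and 0.584 p.p.m. The 12 h levels of 0.677 and 0.639 p.p.m. were thus close to those of the background, and the 12 h ratio was below its ratio. In the CpG-rich class the ratios were 0.11, -0.10 and -0.15 at 3, 6 and 12 h and -0.05 without Dox. At 3 h, 371 of the 644 CpG-rich pairs (57.6%) were above the median of CpG-rich isolated promoters.

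The antibody against MacroH2A2 gave an excess in ES cells that lay between those of HA-Macro at 3 and 6 h. Pairs held 0 to 44 core reads (median 11) and isolated promoters had a median of 8, with means of 1.35 and 1.08 p.p.m. and a log2 ratio of 0.33 [0.30 to 0.36]. Of the pairs, 499 (65.6%) lay above the isolated median, against 49.8% of all protein-coding promoters. Among CpG-rich promoters it was -0.16 [-0.19 to -0.13].

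In MEFs the mean core level was lower at pairs than at isolated promoters in all 4 MacroH2A2 libraries. Relative to the flanks this held for HA-Macro at 6 and 12 h only, and the log2 ratio of pairs to isolated promoters was then above 0 for the antibody (0.10) and for HA-Macro at 3 h (0.14). The anti-MacroH2A2 means were 0.604 p.p.m. at pairs and 0.669 p.p.m. at isolated promoters, a log2 ratio of -0.15 [-0.18 to -0.11]. HA-Macro ratios were -0.26, -0.37 and -0.53 at 3, 6 and 12 h. The series holds no uninduced MEF library. HA-Macro means in MEFs were 0.521, 0.478 and 0.402 p.p.m. at pairs and 0.623, 0.618 and 0.579 p.p.m. at isolated promoters. The no-Dox background of ES cells was 0.664 and 0.584 p.p.m., so the MEF means at pairs were below it at each time. At 12 h the medians were 7 and 9 reads, and 232 pairs (30.5%) lay above the isolated median where 47% of all protein-coding promoters lay. For CpG-rich promoters these ratios were -0.39 for the antibody and -0.39, -0.56 and -0.60 for HA-Macro, and within CpG-poor promoters they were 0.04 and -0.12, -0.03 and -0.21. The plot of ratios by library and CpG class shows the core levels in both cell types.

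**Figure D1:**
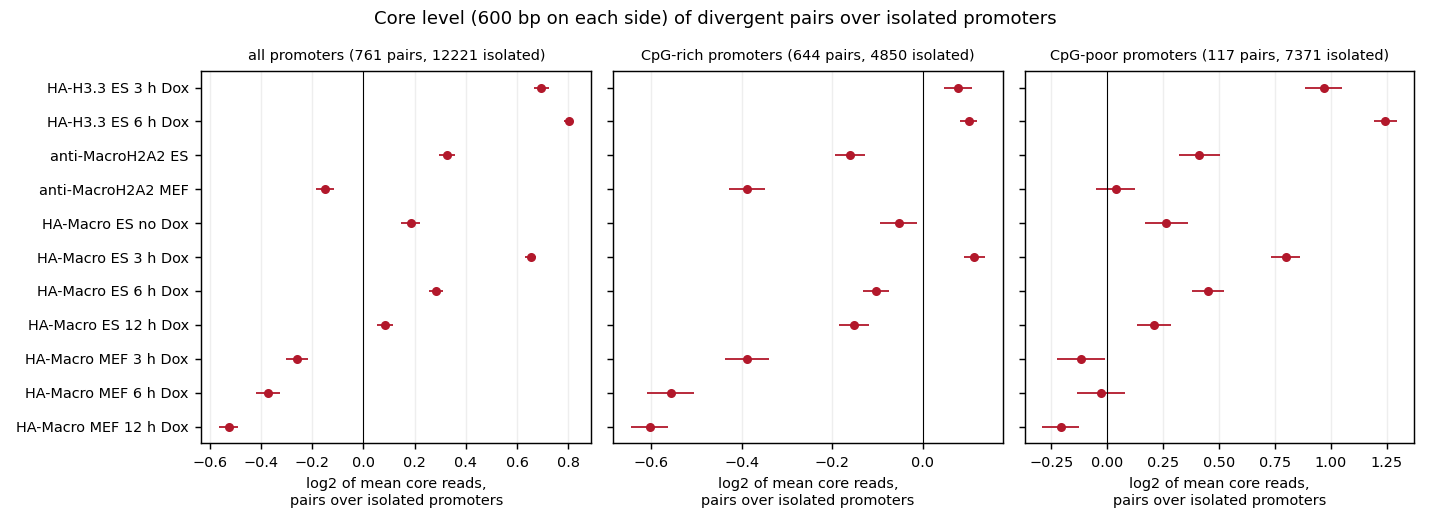
Log2 ratio of mean core reads at divergent pairs over isolated promoters in the 11 libraries (rows), for all, CpG-rich and CpG-poor promoters (panels, with the number of promoters in each title). Bars are 95% counting limits. The ES cell ratios lie above 0 for all promoters (0.80 for HA-H3.3 at 6 h) and close to 0 within CpG-rich promoters (0.10), and the MEF ratios reach -0.53 at 12 h.

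Reads at pairs formed a peak on each side of a central dip. In HA-Macro ES cells at 3 h the mean profile peaked 250 bp to the left and 370 bp to the right of the middle, at 1.48 and 1.45 p.p.m. per kb, and fell to 0.607 p.p.m. per kb over the central 200 bp. That centre was below the flanks, taken from 2 to 4 kb on both sides, at 0.699 p.p.m. per kb. The centre stood at a log2 ratio of -1.27 to the mean of the peaks at 3 h, -0.94 at 6 h and -1.28 at 12 h, and at -1.19 in MEFs at 12 h. The no-Dox background also dipped, by less, at -0.35. HA-H3.3 at 6 h peaked 310 bp to either side at 3.45 and 3.28 p.p.m. per kb with a ratio of -0.48, and anti-MacroH2A2 in ES cells 270 and 290 bp from the middle with a ratio of -0.31, both with the longer intervals. Within CpG-rich pairs the HA-Macro ratios in ES cells were -1.34, -1.01 and -1.38 at 3, 6 and 12 h.

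Isolated promoters had their peak on one side. Their highest point at HA-Macro 3 h was 150 bp downstream of the TSS, at 1.10 p.p.m. per kb, and the 600 bp downstream exceeded the 600 bp upstream by 0.80 on the log2 scale, against 0.34 without Dox. At pairs the right over left ratio lay between -0.06 and 0.07 in all 11 libraries. Its limits excluded 0 for HA-H3.3 at 6 h, with -0.06 [-0.09 to -0.03], and for HA-Macro in ES cells at 3 h, with -0.06 [-0.10 to -0.02].

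**Figure D2:**
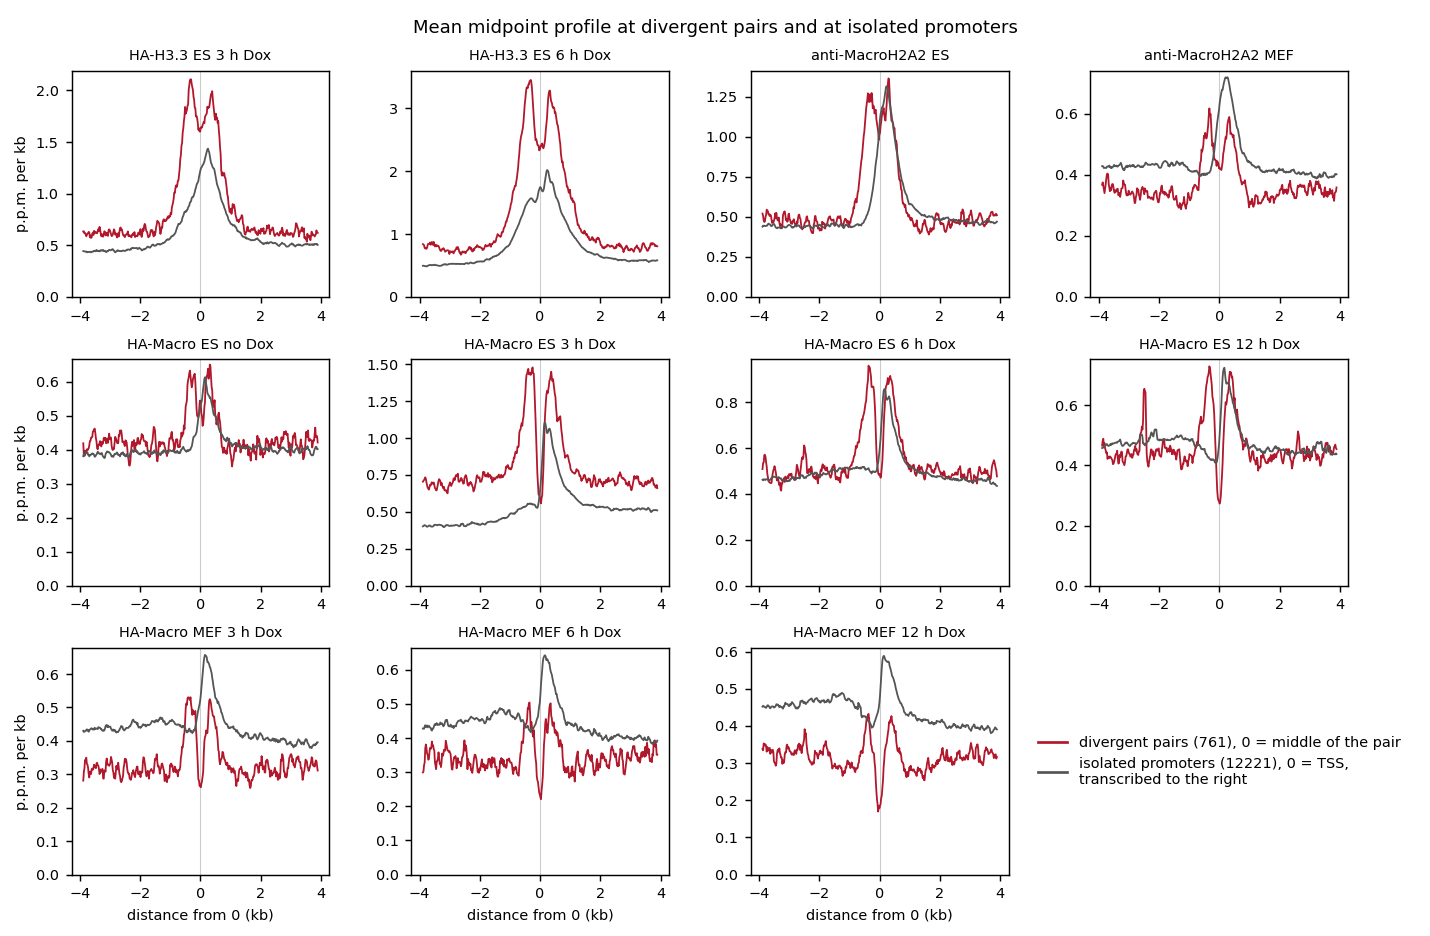
Mean midpoint density in p.p.m. per kb against the distance in kb from the middle of a pair (red, 761 pairs) or from an isolated TSS transcribed to the right (grey, 12221 promoters), in 20 bp bins smoothed over 100 bp, one panel per library with its own scale. Pairs show a peak on either side of a dip, with 1.48 and 1.45 p.p.m. per kb around 0.607 in HA-Macro ES cells at 3 h, and isolated promoters one downstream peak. The spike near -2.5 kb in HA-Macro libraries comes from 1 pair, Fbxo24/Lrch4.

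The flanks differed as well, in a direction that varied with the library. In HA-Macro ES cells at 3 h the flanks of pairs stood at 0.699 p.p.m. per kb and those of isolated promoters at 0.464, a log2 ratio of 0.59. It was 0.07 at 6 h and -0.05 at 12 h, 0.50 for HA-H3.3 at 6 h, and below 0 in the MEF libraries, at -0.25 for the antibody and -0.40, -0.30 and -0.39 for HA-Macro. The log2 ratio of core to flanks was 0.75 at pairs and 0.69 at isolated promoters for HA-Macro in ES cells at 3 h, 0.65 and 0.44 at 6 h, and 0.34 and 0.20 at 12 h. For HA-H3.3 at 6 h it was 1.88 and 1.57, for anti-MacroH2A2 in ES cells 1.24 and 0.98, and for anti-MacroH2A2 in MEFs 0.53 and 0.42. For HA-Macro in MEFs it was 0.45 and 0.32 at 3 h, 0.22 and 0.29 at 6 h, and 0.04 and 0.17 at 12 h. Among CpG-rich promoters the order turned for HA-Macro in ES cells at 3 h (0.80 at pairs and 1.02 at isolated promoters) and for anti-MacroH2A2 in ES cells (1.34 and 1.46). It also turned for HA-H3.3 at 3 h, from 1.55 and 1.22 over all promoters to 1.63 and 1.69, and for anti-MacroH2A2 in MEFs (0.57 and 0.63). The no-Dox background turned as well, from 0.40 and 0.31 over all promoters to 0.42 and 0.55. The values were close for HA-H3.3 at 6 h (1.964 and 1.956) and for HA-Macro in ES cells at 6 h (0.70 and 0.71).

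Counted for each gene on its own, CpG-rich pair genes held less MacroH2A2 downstream of their TSS than CpG-rich isolated genes did. The 600 bp downstream of a pair gene's TSS held 6.05 anti-MacroH2A2 reads in ES cells on average, against 9.10 at isolated genes, a log2 ratio of -0.59 [-0.62 to -0.55]. For HA-Macro in ES cells the ratio was -0.21, -0.37 and -0.41 at 3, 6 and 12 h, in MEFs at 12 h it was -0.73, and without Dox it was -0.28. HA-H3.3 gave -0.13 [-0.16 to -0.09] at 3 h and 0.05 [0.03 to 0.07] at 6 h. Over all promoters the downstream ratios for HA-Macro in ES cells were 0.42, 0.11 and -0.06, and for CpG-poor promoters 0.65, 0.31 and 0.12, so the lower downstream level in ES cells at 3 and 6 h was a feature of the CpG-rich class. In MEFs at 12 h they were -0.58 over all and -0.22 for CpG-poor promoters. Upstream, which for a pair gene is mostly its partner's side, the ratios within CpG-rich promoters were 0.43 for anti-MacroH2A2 in ES cells, 0.64, 0.29 and 0.25 for HA-Macro in ES cells, 0.14 for HA-H3.3 at 6 h and -0.44 in MEFs at 12 h.

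The dip was deepest where the TSSs lay more than 200 and up to 300 bp apart. Reads per base between the TSSs were set against those of the 400 bp outside each TSS. For HA-Macro in ES cells at 3 h the log2 ratio was -0.90 in 281 pairs with TSSs at most 100 bp apart, -1.55 in 214 pairs above 100 and up to 200 bp, -1.94 [-2.17 to -1.72] in 108 pairs above 200 and up to 300 bp, -1.34 in 82 pairs above 300 and up to 500 bp and -0.82 in 76 pairs above 500 and up to 1000 bp. The 6 h library gave the same shape, with -0.53, -1.30, -1.61, -0.94 and -0.59. At 12 h the lowest value was -2.18 [-2.55 to -1.83], and in MEFs at 12 h it was -2.04, both in the class from 200 to 300 bp. HA-H3.3 at 6 h ran from -0.14 to -0.76 and back to -0.27. The no-Dox background ran from 0.18 to -0.79 and then to -0.41, so it too was lowest in that class.

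The peaks moved outward with the TSSs. For HA-H3.3 at 6 h the highest point of the mean profile lay 270, 310, 370, 450 and 550 bp from the middle in the 5 distance classes, and for HA-Macro in ES cells 190, 230, 410, 370 and 510 bp at 3 h and 190, 250, 290, 350 and 630 bp at 6 h. The core level itself changed little with distance: HA-H3.3 at 6 h was between 3.23 and 3.74 p.p.m. in the classes, and HA-Macro at 3 h went from 1.49 to 1.23 p.p.m. and at 6 h from 0.937 to 0.884 p.p.m. from the tightest to the widest class. CpG-rich pairs made up 87.9% of the tightest class and 59.2% of the widest.

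**Figure D3:**
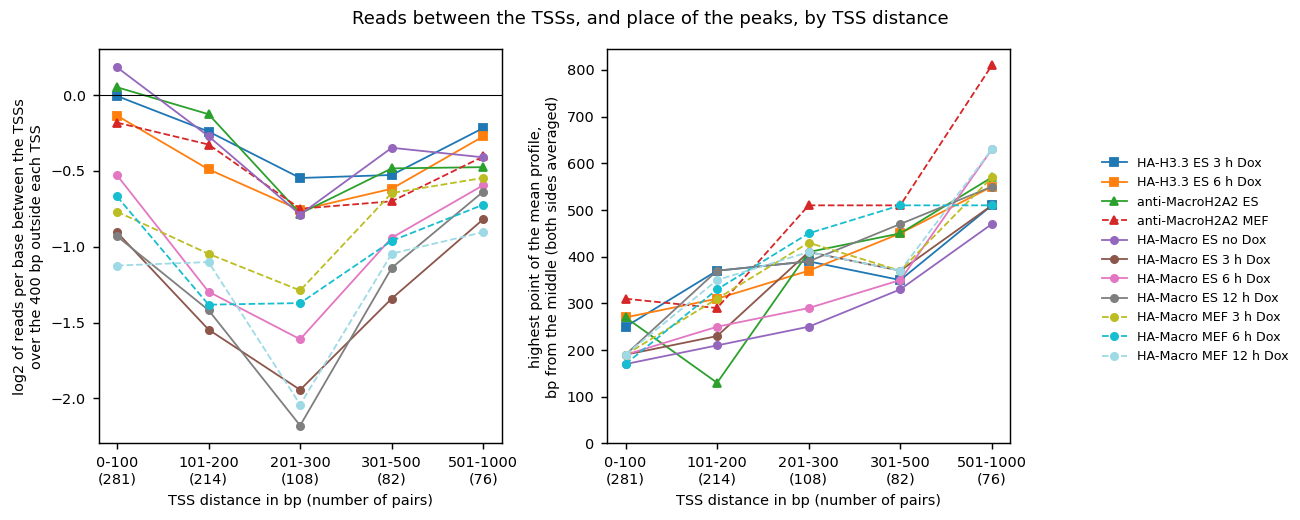
Left, log2 ratio of reads per base between the TSSs over the 400 bp outside each TSS, and right, distance in bp of the highest point of the mean profile from the middle, against classes of TSS distance (number of pairs in brackets), one line per library. Dashed lines are MEFs. In most libraries the ratio is lowest between 200 and 300 bp (-1.94 for HA-Macro ES cells at 3 h), and the peaks move outward as the TSSs part.

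Levels just outside the limit of 1000 bp were somewhat lower than just inside it in the libraries given here. The core is fixed at 600 bp on each side of the middle. In the wider pairs the TSSs and the peaks outside them therefore lie near its edge or beyond it. The 28 used pairs more than 700 bp apart averaged 3.95 p.p.m. of HA-H3.3 at 6 h and 1.22 p.p.m. of HA-Macro in ES cells at 3 h, and the 36 divergent pairs up to 1300 bp apart just outside the limit averaged 3.48 and 1.02 p.p.m. For HA-Macro at 6 h the values were 0.960 and 0.789 p.p.m. The no-Dox background was lower outside too, with 0.684 p.p.m. inside the limit and 0.539 p.p.m. outside it. For anti-MacroH2A2 in ES cells these values were 1.46 and 0.949 p.p.m., and 46.4% and 38.9% of these pairs were CpG-rich.

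As a share of its library, HA-Macro at pairs fell during the time course in ES cells, by more than at isolated promoters. A lower share need not be a lower amount: the paper describes relative enrichment that diminishes as more tagged histone is built in elsewhere. Pooled over pairs, the 12 h over 3 h log2 ratio, with each library scaled to its total, was -1.06 [-1.10 to -1.03], against -0.50 at isolated promoters, a difference of -0.57 [-0.61 to -0.53]. Among the 693 pairs with at least 20 reads in both libraries together, 357 (51.5%) were at least 2-fold lower at 12 h and 1 was at least 2-fold higher. Of all protein-coding promoters, 33.2% were at least 2-fold lower and 2.69% at least 2-fold higher, and of isolated promoters 2301 of 7863 (29.3%) were lower. Within CpG-rich promoters 333 of 601 pairs (55.4%) were lower, against 41.0% of isolated promoters and 45.2% of all protein-coding ones. From 6 to 12 h these CpG-rich shares were 13.4%, 12.7% and 12.9%. With the 6 h library in place of the 3 h library the difference over all promoters was -0.20 [-0.24 to -0.16]. Then 74 of 596 pairs (12.4%) were at least 2-fold lower, against 9.9% of all protein-coding promoters. As core over flanks, pairs went from 0.75 at 3 h to 0.34 at 12 h and isolated promoters from 0.69 to 0.20. Relative to the flanks, pairs thus did not fall by more from 3 h, but over all promoters they did from 6 h (0.65 and 0.44). Within CpG-rich promoters pairs went from 0.80 at 3 h and 0.70 at 6 h to 0.40 at 12 h. Isolated promoters of that class went from 1.02 and 0.71 to 0.35, so there pairs did not fall by more from either time.

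This difference was smaller within CpG-rich promoters than over all. Within CpG-rich promoters the difference between pairs and isolated promoters was -0.27 for 12 h over 3 h and -0.05 [-0.09 to -0.01] for 12 h over 6 h. Within CpG-poor promoters it was -0.59 for 12 h over 3 h and -0.24 [-0.34 to -0.14] for 12 h over 6 h. Within the pairs, the pooled 12 h over 3 h ratio was lowest, at -1.22 [-1.32 to -1.12], between 200 and 300 bp of TSS distance and highest, at -0.90 [-1.02 to -0.78], above 500 bp, and 69.4% and 34.3% of the pairs with enough reads in these classes were at least 2-fold lower. From 6 to 12 h the same classes had -0.55 [-0.66 to -0.44] and -0.42 [-0.55 to -0.30]. CpG-rich pairs made up 91.7% and 59.2% of these classes. The 12 h over 3 h ratio was -1.12 over CpG-rich pairs and -0.66 over CpG-poor ones. The part of this in the differences between distance classes was not tested. In 4 groups of pairs of about equal size, ordered by HA-H3.3 reads at 6 h, the 12 h over 3 h ratio was -0.99, -1.10, -1.07 and -1.08 from the fewest to the most reads, and from 6 to 12 h it was -0.37, -0.46, -0.46 and -0.47. CpG-rich pairs made up 71.2% of the group with the fewest reads and 93.2% of that with the most.

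In MEFs the fall was smaller and rested on few reads. The pooled 12 h over 3 h log2 ratio was -0.37 at pairs and -0.11 at isolated promoters, a difference of -0.27 [-0.32 to -0.21], and -0.16 with the 6 h library in place of 3 h. Within CpG-rich promoters these differences were -0.21 and -0.05 [-0.11 to 0.02], and within CpG-poor promoters -0.09 [-0.22 to 0.05] and -0.18, so that the limits of one difference in each class included 0. Only 129 pairs had at least 20 reads in both libraries together, of which 10 (7.75%) were at least 2-fold lower, against 4.63% of all protein-coding promoters and 4.17% of isolated promoters. Within CpG-rich promoters 9 of 96 pairs (9.38%) were lower, against 6.88% of all protein-coding promoters and 6.36% of isolated ones. HA-H3.3 in ES cells, measured at 3 and 6 h, rose by 0.67 at pairs and 0.56 at isolated promoters on the log2 scale, a difference of 0.11, and 0.02 [-0.01 to 0.06] within CpG-rich promoters.

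Anti-MacroH2A2 at pairs was a smaller share of its library in MEFs than in ES cells. Shares do not give absolute amounts: more signal elsewhere in the genome lowers them. The pooled MEF over ES log2 ratio was -1.16 at pairs and -0.69 at isolated promoters, a difference of -0.48 [-0.52 to -0.43], and -0.23 within CpG-rich promoters. Of 368 pairs with at least 20 reads in both libraries together, 248 (67.4%) were at least 2-fold lower in MEFs, against 44.5% of all protein-coding promoters and 41.3% of isolated ones. Within CpG-rich promoters 235 of 334 pairs (70.4%) were lower, against 55.3% of all protein-coding promoters and 52.6% of isolated ones. In the other direction 0 pairs were at least 2-fold higher, against 0.788% of all protein-coding promoters. Induced HA-Macro gave differences of -0.91, -0.65 and -0.61 between pairs and isolated promoters at 3, 6 and 12 h, and of -0.50, -0.45 and -0.45 within CpG-rich promoters. The flanks also differed between cell types. As core over flanks, HA-Macro at 3 h was 0.75 in ES cells and 0.45 in MEFs at pairs. At isolated promoters it was 0.69 and 0.32, so on this scale pairs were not lower by more. They were at 6 h (0.65 and 0.22 against 0.44 and 0.29) and at 12 h (0.34 and 0.04 against 0.20 and 0.17). The antibody had 1.24 and 0.53 against 0.98 and 0.42. Within CpG-rich promoters it had 1.34 and 0.57 against 1.46 and 0.63, so there pairs were not lower by more. For HA-Macro the order within CpG-rich promoters was as over all promoters at each time. The MEF over ES ratio of the antibody at pairs hardly moved with TSS distance (-1.13 to -1.20). It was -0.93 in the group of pairs with the fewest HA-H3.3 reads and -1.24 in that with the most. CpG-rich pairs made up 71.2% and 93.2% of these groups. Over CpG-rich pairs the ratio was -1.23 and over CpG-poor ones -0.71, and the part of this in the difference between groups was not tested.

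**Figure D4:**
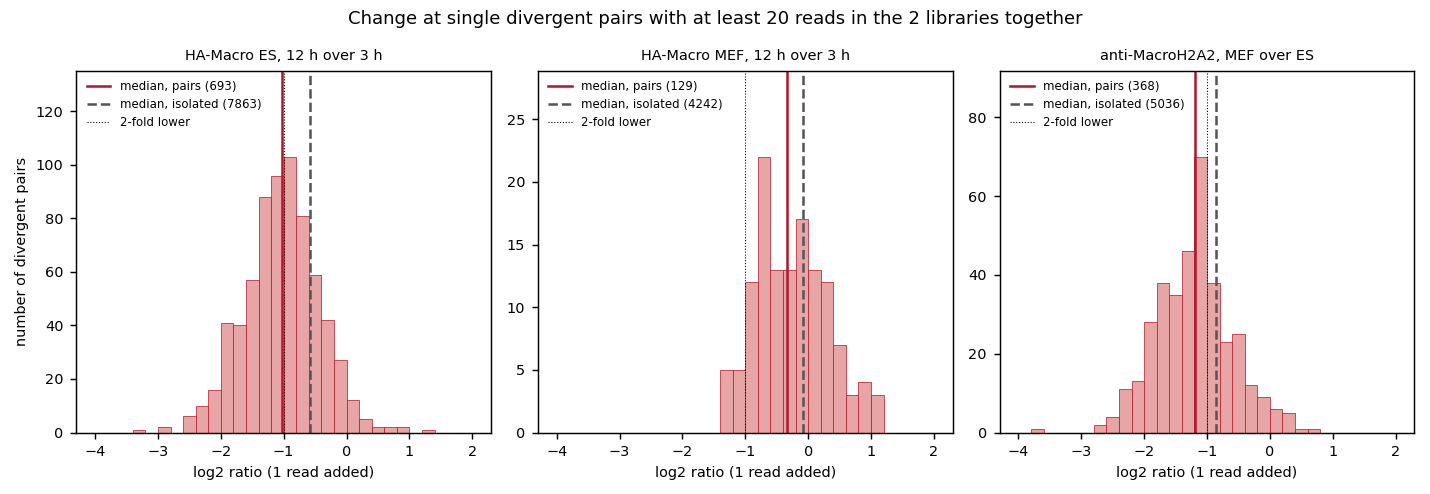
Number of divergent pairs by log2 ratio in 3 comparisons, for pairs with at least 20 reads in both libraries together and 1 read added to each. Lines give the medians of pairs and of isolated promoters and the limit for 2-fold lower. The pairs' medians are -1.02, -0.34 and -1.19 and those of isolated promoters -0.59, -0.09 and -0.86.

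Among the pairs named in textbooks, 8 of 18 listed were members, 8 had TSSs that cross and 2 were neither. Among the members were Atm/Npat, Hnrnpa2b1/Cbx3, Mcm4/Prkdc, Brca1/Nbr1, Cox4nb/Cox4i1, Mrps12/Sars2 and Gart/Son, of which Cox4nb/Cox4i1 lay in a tile that was left out. All values below are unscaled core reads, and the libraries differ in depth as given above. Mrps12/Sars2, which encode a mitochondrial ribosomal protein and the mitochondrial seryl-tRNA synthetase, had 22, 12 and 7 HA-Macro reads in ES cells at 3, 6 and 12 h, 4, 4 and 6 in MEFs, 3 without Dox, 6 and 5 with anti-MacroH2A2 in ES cells and MEFs, and 13 and 23 of HA-H3.3 at 3 and 6 h. It was lower at 12 h than at 3 h in ES cells beyond counting error, with a log2 ratio of -1.77 [-3.24 to -0.49].

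At the other textbook pairs described here the limits of this ratio crossed 0. Atm/Npat, a DNA damage kinase and a regulator of histone transcription, had 17, 11 and 13 HA-Macro reads in ES cells and 1, 0 and 6 in MEFs. Mcm4/Prkdc, a replicative helicase subunit and the DNA-dependent protein kinase, had 21, 10 and 11 in ES cells and 3, 4 and 4 in MEFs. Hnrnpa2b1/Cbx3, an RNA-binding protein and the heterochromatin protein HP1 gamma, had 21, 12 and 11 and then 8, 2 and 10. These pairs held 41, 31 and 39 HA-H3.3 reads at 6 h, near the median of all pairs of 34.

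Gart/Son, a purine synthesis enzyme and a splicing cofactor, stood higher in HA-H3.3, with 70 reads at 6 h and 27 at 3 h, and had 26, 20 and 15 HA-Macro reads in ES cells. Brca1/Nbr1, a tumour suppressor of DNA repair and an autophagy receptor, was low in every library, with 14 HA-H3.3 reads at 6 h, 8, 3 and 3 HA-Macro reads in ES cells and 3 anti-MacroH2A2 reads in either cell type.

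The 5 pairs whose HA-Macro fell most in ES cells were CpG-rich, as were 84.2% of all pairs. Nfya/AI314976 had 27, 10 and 2 reads at 3, 6 and 12 h, 5, 5 and 6 in MEFs, 7 without Dox, 8 and 8 with anti-MacroH2A2 in ES cells and MEFs, and 21 and 73 of HA-H3.3 at 3 and 6 h. Its 12 h count was below the no-Dox count, and its 12 h over 3 h log2 ratio was -3.87 [-6.99 to -1.88], or -3.34 with 1 read added to each library. 6030458C11Rik/Drosha, whose second gene encodes the nuclease that starts microRNA processing, had 34, 26 and 4 reads in ES cells, 8, 7 and 12 in MEFs and 8 without Dox, with 12 and 10 of anti-MacroH2A2 and 19 and 30 of HA-H3.3. Most of its fall lay between 6 and 12 h.

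Sdha/Ccdc127, the first a subunit of succinate dehydrogenase, had 19, 9 and 2 HA-Macro reads in ES cells, and Cct5/Fam173b, the first a chaperonin subunit, 48, 18 and 8. Itgb1bp1/Cpsf3, the second the nuclease that cuts pre-mRNA at its 3′ end, had 26, 16 and 4. In all 5 the counts fell at each time, and in MEFs they stayed between 2 and 12 reads. These pairs were picked as the extremes of the ratio, which is therefore a description.

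The highest ratios in ES cells were at pairs with low counts. 5033414D02Rik/Cd274, the second the immune checkpoint ligand PD-L1, had 5, 15 and 15 HA-Macro reads in ES cells, 2, 3 and 7 in MEFs, 7 without Dox, 9 and 6 with anti-MacroH2A2, and 3 and 20 of HA-H3.3. Its 12 h over 3 h log2 ratio was 1.47 [-0.06 to 3.29], or 1.30 with 1 read added, and it was the 1 pair at least 2-fold higher. Klhl29/2810032G03Rik had 10, 11 and 21 reads, Tmem135/Fzd4 9, 13 and 16, and Il11/Tmem190 13, 22 and 22. The 95% limits of the ratios of these 4 pairs included 0.

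In MEFs the extremes also rested on low counts. Med29/Paf1, a Mediator subunit and a subunit of an elongation complex, and Wfdc3/Dnttip1, which the annotation lists under 2 identifiers, each had 12 reads at 3 h and 8 at 12 h, with 8 and 10 at 6 h. The highest ratio was at Gm17649/Hoxc13, the second a homeobox gene, with 7, 11 and 31 reads in MEFs and 15, 18 and 9 in ES cells, and a log2 ratio in MEFs of 1.28 [0.07 to 2.71]. Sgsh/Slc26a11 had 4, 2 and 19 reads in MEFs and Fbxo44/Fbxo2, both F-box genes, 4, 11 and 18.

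HA-H3.3 at 6 h was highest at Gfer/Noxo1, a sulfhydryl oxidase of mitochondria and an organizer of an NADPH oxidase. It had 130 reads at 6 h and 33 at 3 h, 39, 25 and 21 HA-Macro reads in ES cells, 9, 6 and 12 in MEFs, 10 without Dox, and 18 and 16 of anti-MacroH2A2. Nop14/Grk4, the first needed to build the small ribosomal subunit, had 110 and 24 HA-H3.3 reads but 18, 15 and 7 HA-Macro reads in ES cells, below the 3 h median of 23. Mbd4/Ift122, the first a DNA glycosylase, had 104 and 46 HA-H3.3 reads and 12, 12 and 11 HA-Macro reads. Bet1l/Ric8, also with 104 HA-H3.3 reads at 6 h, and 2810408A11Rik/Neurl4 were the other members of the top 5. The pairs with the most HA-H3.3 thus held HA-Macro counts on either side of the median.

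Anti-MacroH2A2 in ES cells was highest at Sgce/Peg10, a pair of imprinted genes expressed from the paternal copy. It had 44 reads in ES cells and 36 in MEFs, 21, 23 and 19 HA-Macro reads in ES cells, 16, 19 and 32 in MEFs, 12 without Dox, and 18 and 35 of HA-H3.3, so it was high with the antibody in both cell types and near the median in HA-H3.3 and early HA-Macro. Lyzl4/Vipr1 had 32 and 29 reads in ES cells and MEFs, N4bp3/D930048N14Rik 31 and 17, Pusl1/Acap3 31 and 21, and Inca1/Kif1c 30 and 14.

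Between cell types the lowest anti-MacroH2A2 ratio was at Basp1/Gm5468, with 20 reads in ES cells and 2 in MEFs, a log2 ratio of -4.12 [-7.26 to -2.08]. Its HA-Macro reads were 25, 17 and 17 in ES cells and 9, 7 and 5 in MEFs. Gm10101/Cgrrf1 (17 and 4), Vezt/Fgd6 (20 and 5), Cep76/Psmg2 (23 and 6) and Zbtb49/Lyar (23 and 6) followed. At the other end the limits of the ratios included 0. Amdhd1/Ccdc38 had 12 reads in ES cells and 34 in MEFs, Hist1h2ba/Hist1h2aa, a pair of testis histone genes, 12 and 30, Sncg/Mmrn2 13 and 30, and E130018O15Rik/Hmx1 16 and 36. Col4a4/Col4a3, both chains of basement membrane collagen, had 16 and 37 anti-MacroH2A2 reads, 16, 15 and 15 HA-Macro reads in ES cells, 15, 18 and 35 in MEFs, 8 without Dox, and 15 and 11 of HA-H3.3.

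**Figure D5:**
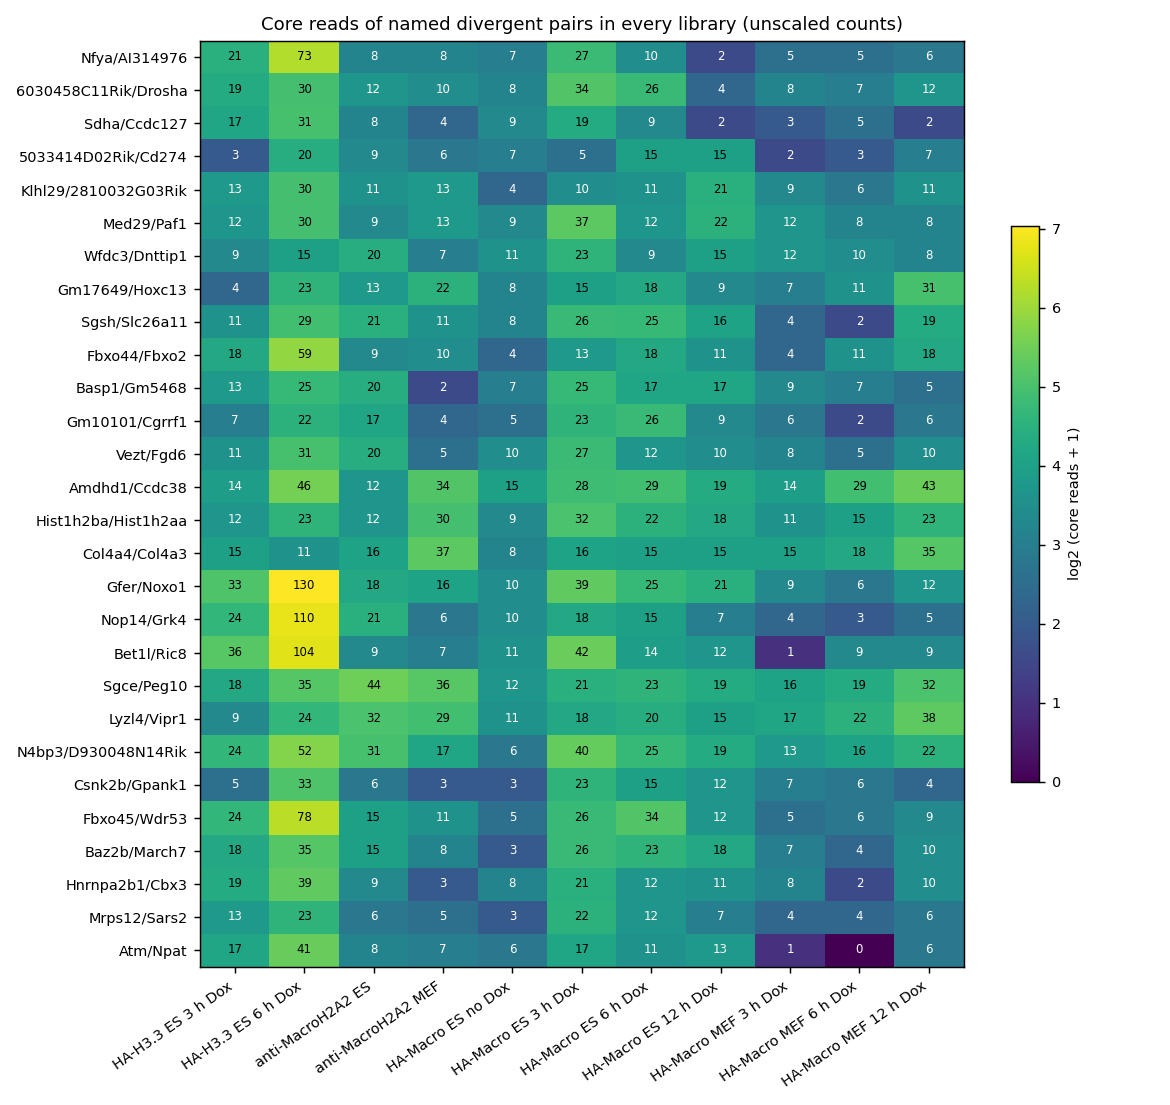
Unscaled core reads (numbers) and log2 of core reads plus 1 (colour) of named divergent pairs (rows) in the 11 libraries (columns), at most 3 pairs for each part of the naming rule. Gfer/Noxo1 stands out in HA-H3.3 at 6 h with 130 reads, Sgce/Peg10 in anti-MacroH2A2 ES cells with 44, and Nfya/AI314976 goes from 27 to 2 HA-Macro reads in ES cells between 3 and 12 h.

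HA-H3.3 reads on the sides of a pair were loosely correlated across pairs. Over the 761 pairs, the reads on the left and right 600 bp of the core at 6 h had a Spearman correlation of 0.39 and a Pearson correlation of 0.38. The correlations are across pairs within 1 library and share its depth, the base composition of the window and the 400 bp intervals that cross the middle. For HA-Macro in ES cells the Spearman correlation was 0.18 at 3 h and 0.16 at 6 h, for anti-MacroH2A2 in ES cells 0.15 and without Dox 0.06. A side held few reads, with medians of 16, 11, 7, 5 and 4 in these libraries in the order given. HA-H3.3 at 3 h, with a median of 6, had a Spearman correlation of 0.30. Counting error at such counts lowers a correlation, so the values do not show how closely the partners match. The largest difference was at Csnk2b/Gpank1, the first the regulatory subunit of casein kinase, whose TSSs lie 899 bp apart, with 33 HA-H3.3 reads on the Csnk2b side and 0 on the Gpank1 side. The same sides held 10 and 13 HA-Macro reads at 3 h and 3 and 3 of anti-MacroH2A2 in ES cells. Fbxo45/Wdr53 had 70 and 8 HA-H3.3 reads and 19 and 7 HA-Macro reads, and Baz2b/March7 31 and 4, and 14 and 12.

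Gene families were spread unevenly over the pairs. Of 67 replication-dependent histone genes, 27 (40.3%) stood in 14 pairs, 13 of them with a histone gene on both sides. Of 98 DNA repair and replication genes, 25 (25.5%) were in pairs, as were 16 of 63 genes of the respiratory chain (25.4%), 16 of 75 mitochondrial ribosomal protein genes (21.3%), 7 of 34 aminoacyl-tRNA synthetase genes (20.6%) and 15 of 79 chaperone genes (19%), beside 7.29% of all protein-coding genes. Genes with symbols of cytosolic ribosomal proteins, with 10 of 138 (7.25%), were near that share. Their list was made by symbol pattern and may also hold gene copies or other genes with such symbols. Zfp zinc finger genes, with 19 of 347 (5.48%), and solute carriers, with 14 of 335 (4.18%), were below the share of all genes. There were 0 of 1106 olfactory receptor genes and 3 of 165 homeobox and developmental regulator genes in pairs. Proteasome subunits had 4 of 41 and collagens 3 of 42.

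The change of HA-Macro in ES cells between 3 and 12 h is given for each family beside the shares at least 2-fold lower of all tested pairs (51.5%), isolated promoters (29.3%) and all protein-coding promoters (33.2%). Reads were at least 2-fold lower at 12 of 15 pairs with a mitochondrial ribosomal protein gene, with a median log2 ratio of -1.41, and at 10 of 23 isolated genes of that family, with a median of -0.94. For genes with symbols of cytosolic ribosomal proteins this was 8 of 10 pairs (-1.67) and 18 of 42 isolated genes (-0.59). For Zfp genes it was 11 of 15 (-1.37) and 72 of 163 (-0.83), and for solute carriers 8 of 13 (-1.27) and 45 of 168 (-0.37). Isolated genes of these families also held fewer HA-H3.3 reads at 6 h than the pairs. For genes with symbols of cytosolic ribosomal proteins the medians were 4 and 22.5, beside 15 at all isolated promoters. They were 20 and 23.5 for mitochondrial ribosomal protein genes, 23 and 31 for Zfp genes and 20 and 38.5 for solute carriers. Families were listed by symbol pattern, which can take in gene copies or other genes, and were not split by CpG class. The part of either in the gaps was not tested, so the values describe the lists and need not hold for the families themselves. Other families showed little or no gap in the fall of HA-Macro, or the opposite one. DNA repair and replication genes had 13 of 23 pairs (-1.05) and 20 of 33 isolated genes (-1.19), respiratory chain genes 8 of 14 (-1.03) and 9 of 17 (-1.02), chaperones 7 of 13 (-1.24) and 13 of 26 (-0.997), and aminoacyl-tRNA synthetases 5 of 6 (-1.30) and 8 of 12 (-1.16). The median over all tested pairs was -1.02, and the pairs of respiratory chain, chaperone and DNA repair genes were near the share of all pairs. Isolated olfactory receptor genes (1 of 120 lower, median 0.26), homeobox and developmental genes (8 of 67, -0.30) and collagens (1 of 16, -0.17) were below the share of isolated promoters. Proteasome pairs (1 of 4), pairs with a homeobox or developmental gene (1 of 3) and collagen pairs (1 of 2) were too few to describe.

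With the 6 h library in place of the 3 h library few of these pairs were at least 2-fold lower. They were 1 of 10 mitochondrial ribosomal protein pairs, 2 of 7 cytosolic ribosomal protein pairs, 1 of 11 Zfp pairs, 2 of 12 solute carrier pairs, 3 of 23 DNA repair and replication pairs, 3 of 13 respiratory chain pairs, 3 of 13 chaperone pairs and 1 of 5 aminoacyl-tRNA synthetase pairs, where 12.4% of all tested pairs were. For the first of these families, isolated genes had 1 of 15, 6 of 39, 17 of 126 (Zfp) and 16 of 167 (solute carriers), where 9.40% of isolated promoters were lower. Their median log2 ratios at pairs and at isolated genes were -0.55 and -0.50, -0.75 and -0.20, -0.59 and -0.35, and -0.71 and -0.32. The gaps in these medians were thus smaller from 6 h than from 3 h.

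Histone pairs had their own balance of readouts. Their median was 37.5 HA-Macro reads in ES cells at 3 h and 35.5 HA-H3.3 reads at 6 h, against 23 and 34 for all pairs, but 3 anti-MacroH2A2 reads in ES cells and 2.5 in MEFs, against 11 and 8. The no-Dox background was higher there too, at 14.5 reads against 8. Between 3 and 12 h, 10 of 14 were at least 2-fold lower, where 33.2% of all protein-coding promoters were, and between 6 and 12 h 1 of 13, where 9.9% were. Histone genes have near-identical copies, so reads placed there may be split among copies and these values are uncertain.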

How the data were processed

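The authors deposited 1 file per library with the genomic interval of each aligned read, in an unscaled coordinate format (unit "other"). Per the labels' processing notes, Bowtie 1.0 and mm9 were used. The methods state extension to 150 bp, but the HA-H3.3 and anti-MacroH2A2 files hold 400 bp intervals. From 0.462% to 6.00% of intervals repeat another one, and all were kept.

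Here midpoints were counted in 20 bp bins around each middle or TSS and within 600 bp of it (core). Gene starts and sequences came from GENCODE vM1 and the mm9 genome. Comparisons between libraries were scaled to intervals on the autosomes, X and Y, with 1 read added for single promoters and at least 20 reads required. With 1 library per condition, ratios carry 95% counting limits and calls are 2-fold changes.

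Named pairs were textbook members, the 5 lowest and 5 highest HA-Macro ratios in ES cells, the 3 lowest and 3 highest in MEFs, the 5 with the most HA-H3.3 or anti-MacroH2A2, the 5 lowest and 5 highest MEF over ES ratios, and the 3 with the most unequal sides. Some of these pairs are not reported here. The members, lists and rules were chosen with earlier results of these data known. Scripts were tested on simulated data. Python 3.11.15, NumPy 2.4.6, pandas 2.3.3, SciPy 1.17.1 and matplotlib 3.10.9 were used.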

Additional observations from a re-analysis of the deposited data

Results flagged for a closer look

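The ratio of core levels at divergent pairs to isolated promoters had opposite signs in ES cells and MEFs in every MacroH2A2 library. On the log2 scale the antibody against MacroH2A2 gave 0.33 in ES cells and -0.15 in MEFs. For HA-Macro it was 0.65, 0.28 and 0.084 at 3, 6 and 12 h in ES cells and -0.26, -0.37 and -0.53 in MEFs. With 1 library per condition the difference between cell types was not tested. As core over flanks the MEF values for the antibody (0.10) and for HA-Macro at 3 h (0.14) were above 0, as in ES cells. Within CpG-rich promoters the ES cell values for anti-MacroH2A2 (-0.16) and for HA-Macro at 6 h (-0.10) and 12 h (-0.15) were also below 0, and the 3 h value was 0.11.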

How the results depend on the processing

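No paired analysis was possible because each condition has 1 library and no test was made. Among log2 ratios of pairs over isolated promoters, HA-H3.3 at 6 h (0.80) became 0.64 with a 300 bp core, 0.75 with isolation from protein-coding TSSs alone, 0.10 within CpG-rich promoters, 0.31 as core over flanks and 0.62 with the no-Dox ratio subtracted. That background is anti-HA from HA-Macro ES cells, so for HA-H3.3 it is another line and for anti-MacroH2A2 another antibody, both with other interval lengths. HA-Macro in ES cells at 3 h (0.65) became 0.44, 0.61, 0.11, 0.062 and 0.47 in the same order. Anti-MacroH2A2 in ES cells (0.33) became 0.19 with a 300 bp core, 0.26 with a 1000 bp core, -0.16 within CpG-rich promoters, 0.26 as core over flanks and 0.14 with no-Dox subtracted. Adding pairs whose TSSs cross, chosen after seeing the data, gave 0.82, 0.68 and 0.38. Signs also turned within CpG-rich promoters without Dox (-0.053) and for HA-Macro in ES cells at 6 h (-0.10) and 12 h (-0.15), at 12 h with a 300 bp core (-0.15) and, after seeing the data, with no-Dox subtracted (-0.10), and as core over flanks in MEFs for the antibody (0.10) and HA-Macro at 3 h (0.14). Pairs minus isolated promoters, 12 h over 3 h, was -0.27 in ES cells within CpG-rich promoters, -0.20 from 6 h, and -0.049 from 6 h within CpG-rich promoters, and in MEFs -0.35 with a 300 bp core, -0.16 from 6 h and -0.089 within CpG-poor promoters.

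Counts above the isolated median became 347 for HA-H3.3 and 371 for HA-Macro within CpG-rich promoters. Counts at least 2-fold lower became, with a 300 bp core, 117 of 220 in ES cells, 0 of 15 in MEFs and 35 of 53 for MEF over ES, and with at least 40 reads 167 of 295, 0 of 15 and 23 of 38. In ES cells it was 74 from 6 h and in MEFs 39 of 381 with a 1000 bp core. Fewer pairs had enough reads in narrower cores. The cause of the other changes was not tested. Of 146 values of named pairs under alternatives, 139 kept direction and size within counting limits, and of 56 main ratios 32 did. Of 79 ratios for the other libraries 39 did, 33 moved and 7 turned in sign.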

Other observations

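The spike about 2.5 kb to the left of the middle in the mean HA-Macro profiles came from 1 pair, Fbxo24/Lrch4. From 2.7 to 2.3 kb on that side it held 12 reads without Dox, 104, 152 and 327 HA-Macro reads in ES cells at 3, 6 and 12 h, and 26, 29 and 52 in MEFs, where the median pair held 1 to 4. The HA-H3.3 libraries held 2 and 2 reads there and the anti-MacroH2A2 libraries 0 in ES cells and 2 in MEFs. Counts at this place thus rose with time in ES cells while those of the same pair's core were 31, 11 and 13. This site was singled out after its values were seen.

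Within CpG-rich pairs, levels with and without a motif in the window differed for some motifs. With the TATA box motif (24 pairs) the median was 5.5 anti-MacroH2A2 reads in ES cells and without it 12, while for HA-Macro in ES cells at 3 h the medians were 28 and 24. With the Sp1 motif they were 12 and 9.5 anti-MacroH2A2 reads and 37 and 31 HA-H3.3 reads at 6 h. With the YY1 motif (34 pairs) the median was 31 HA-Macro reads in ES cells at 3 h and without it 24. For the Ets motif the medians were 12 and 11 anti-MacroH2A2 reads and 35.5 and 35 HA-H3.3 reads, and the median 12 h over 3 h log2 ratio of HA-Macro was -1.11 and -1.07.

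Divergent pairs farther apart than the limit had lower levels in some libraries and higher ones in others. Those more than 5000 and up to 10000 bp apart, 564 in number and 1.42% CpG-rich at their middle, which lies far from both TSSs, held 0.999 p.p.m. of HA-H3.3 at 6 h and 0.642, 0.694 and 0.668 p.p.m. of HA-Macro in ES cells at 3, 6 and 12 h, against 3.45 and 1.42, 0.920 and 0.677 p.p.m. at the members. In MEFs at 12 h they held 0.578 p.p.m. of HA-Macro, against 0.402 at the members.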
